A study of Homo sapiens with 10 samples.

Results

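WNT ligands, their Frizzled receptors and LRP co-receptors, the SFRP and DKK antagonists, and the intracellular genes of the pathway were described by the accessible chromatin at their starts. The list holds 46 genes, namely 19 WNT, 10 FZD, 4 SFRP, 4 DKK and 2 LRP genes, 4 TCF/LEF factors, and CTNNB1, AXIN1 and AXIN2. Peaks were taken as theirs where the deposited annotation named the gene's Ensembl identifier as the nearest, which gave 295 of 161934 peaks. An identifier was found for 45 of the 46 genes.

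The peaks come from ATAC-seq, a method that marks open DNA by cutting and tagging it with the transposase Tn5. The series holds 5 ARID1A knockout and 5 control libraries, all from MDA-MB-231, a cultured triple-negative breast cancer line. ARID1A is a subunit of the SWI/SNF chromatin remodelling complex. The labels name neither the way the knockout was made nor whether the knockout cells are a single clone, or whether libraries came from separate cultures. The design asks how loss of ARID1A changes accessibility, but the peak list has 0 columns per library, no peak height and no p-value. No difference between ARID1A knockout and control cells was therefore measured here. The list does not show which libraries a peak came from, so a peak may be of either group or of both. Everything below is a description of 1 list and carries no replicate error.

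WNT proteins are secreted, lipid-modified ligands that bind a Frizzled receptor together with LRP5 or LRP6. This binding stops the destruction complex, which contains AXIN, from marking beta-catenin (CTNNB1) for degradation, and beta-catenin then enters the nucleus and activates genes through TCF/LEF factors. SFRP proteins bind the ligands, and most DKK proteins act on the LRP co-receptors. In breast the pathway takes part in gland development and in stem cell maintenance.

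A start peak is a peak within 1000 bases of the outermost 5′ boundary of the gene in RefSeq. Of the 45 members whose state could be set, 31 had a start peak (68.9%, exact 95% interval 53.4 to 81.8, which covers counting over genes and no replicate error). The share was 71.6% over 19786 protein-coding genes, so the members as a whole stood near the background. Start peaks were found at 9 of 10 FZD genes, 11 of 19 WNT genes, 2 of 4 SFRP genes, 1 of 3 DKK genes, 2 of 2 LRP genes, 3 of 4 TCF/LEF genes and 3 of 3 of CTNNB1, AXIN1 and AXIN2. The exact intervals of the FZD share (90%, 55.5 to 99.7) and the WNT share (57.9%, 33.5 to 79.7) overlap, and the difference was not tested. A peak covered the start base itself in 28 of the 45 members (62.2%), against 64.4% of all protein-coding genes of known strand. WNT2, WNT9B and SFRP5 had theirs beside the start. Within 3000 bases 36 of the 45 members had a peak (80%), against 81.7% of all genes of known strand, the 5 added being WNT3A, WNT6, WNT10A, SFRP1 and SFRP2. The member just inside the limit was WNT2, whose peak ended 785 bases upstream, and the members just outside were WNT3A, at 1252 bases, and WNT6, at 2096 bases.

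**Figure D1:**
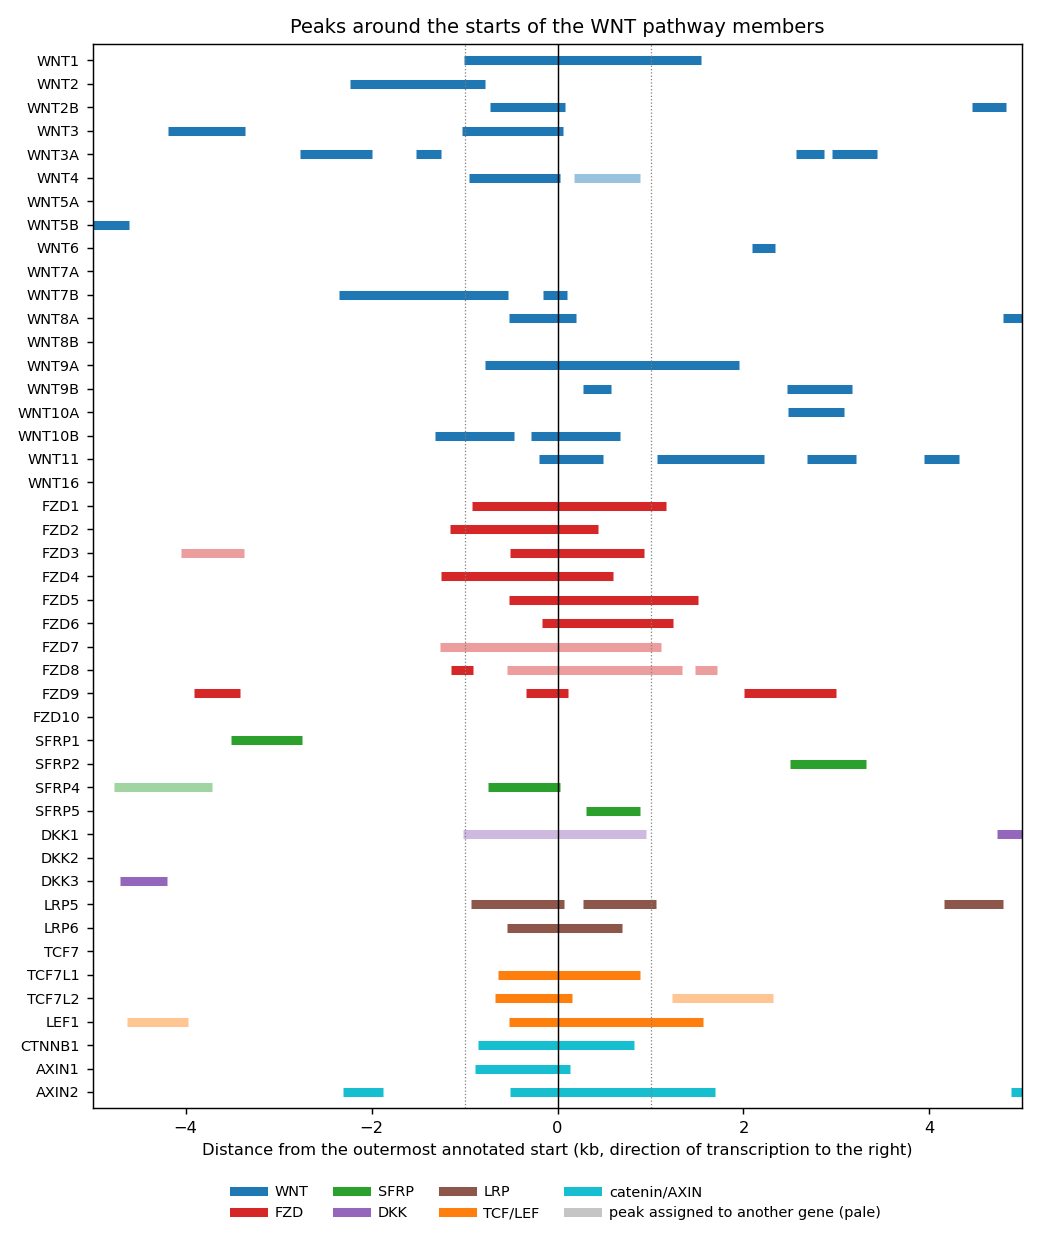
Peaks within 5 kb of the outermost annotated start of the 45 members of known strand, each row a gene and each bar a peak drawn to scale, with transcription to the right. Pale bars are peaks that the deposited table assigns to another gene, dotted lines mark 1000 bases either side, and 9 of the 10 FZD rows have a bar over the start.

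The sequences before 4 WNT starts are shown because these genes contrast CpG content with the presence of a peak. Each run gives the 250 bases before the start, 5′ to 3′ on the gene's strand, from RefSeq on GRCh38.p14, with CpG dinucleotides in capitals. WNT9A had a start peak, while WNT3A, WNT7A and WNT8B had none.
WNT9A (chr1:227947933-227948182, minus strand): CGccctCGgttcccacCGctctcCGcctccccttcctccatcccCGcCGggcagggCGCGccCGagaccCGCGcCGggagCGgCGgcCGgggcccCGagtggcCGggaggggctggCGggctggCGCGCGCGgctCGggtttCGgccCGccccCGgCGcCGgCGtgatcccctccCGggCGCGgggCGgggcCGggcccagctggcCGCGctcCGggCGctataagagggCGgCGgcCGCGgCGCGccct
WNT3A (chr1:228006748-228006997, plus strand): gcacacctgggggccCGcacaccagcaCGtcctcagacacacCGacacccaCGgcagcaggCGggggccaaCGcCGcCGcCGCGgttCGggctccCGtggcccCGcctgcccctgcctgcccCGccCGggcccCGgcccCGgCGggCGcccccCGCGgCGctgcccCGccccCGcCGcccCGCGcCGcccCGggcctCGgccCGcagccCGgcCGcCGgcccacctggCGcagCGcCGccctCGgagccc
WNT7A (chr3:13880072-13880321, minus strand): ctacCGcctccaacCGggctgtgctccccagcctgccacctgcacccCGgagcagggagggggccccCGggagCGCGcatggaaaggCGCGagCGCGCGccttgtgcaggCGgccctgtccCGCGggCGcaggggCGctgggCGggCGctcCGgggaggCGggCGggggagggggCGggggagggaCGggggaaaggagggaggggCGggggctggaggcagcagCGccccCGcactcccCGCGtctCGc
WNT8B (chr10:100462759-100463008, plus strand): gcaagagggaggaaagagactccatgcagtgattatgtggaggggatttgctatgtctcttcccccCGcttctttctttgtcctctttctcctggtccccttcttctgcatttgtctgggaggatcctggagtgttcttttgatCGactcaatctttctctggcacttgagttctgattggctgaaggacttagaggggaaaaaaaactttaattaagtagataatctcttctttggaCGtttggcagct
The run of WNT9A holds 44 CpG dinucleotides, that of WNT3A 38, that of WNT7A 29 and that of WNT8B 3.

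Among the WNT ligands the longest start peaks were at WNT9A and WNT1. The WNT9A peak measured 2727 bases (chromosome 1, 227945985 to 227948711) and reached 1947 bases into the gene. The WNT1 peak measured 2560 bases (chromosome 12, 48977311 to 48979870) and was the only peak assigned to that gene. WNT7B, which signals through beta-catenin in several epithelia, had a peak of 257 bases over the start and one of 1817 bases that ended 535 bases upstream of it. WNT2 had 1452 bases, WNT3 1089, WNT4 982, WNT10B 958, WNT2B 815, WNT8A 729 and WNT11 688. The WNT8A peak is listed as intergenic, 6321 bases upstream of an inner start, because the table does not name the RefSeq boundary. No listed start of WNT8A had a peak within 1000 bases, and neither did its inner start with a RefSeq promoter window. The shortest was at WNT9B, with 298 bases that began 275 bases inside the gene. Of the 11 WNT genes with a start peak, 3 had one longer than 1575 bases, the upper quartile of the longest start peak over all protein-coding genes with one. Their median was 982 bases, against 1256 over those 14105 genes.

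Without a start peak were 8 WNT genes, WNT3A, WNT5A, WNT5B, WNT6, WNT7A, WNT8B, WNT10A and WNT16. They fell into those with a peak at another annotated start and those with none at any start that the table lists. WNT5A, the ligand best known for signalling without beta-catenin, had a peak of 2103 bases over a start 17621 bases inside its outermost boundary. WNT10A had 1192 bases over a start 6247 bases inside. WNT5B had 743 bases over a start 86237 bases upstream of the RefSeq boundary, and nothing within 1000 bases of that boundary. Of its 5 further listed starts only 2 had a peak within 1000 bases, that one and one 87165 bases upstream. Its 2 starts with a RefSeq promoter window had none. WNT3A, WNT6, WNT7A, WNT8B and WNT16 had no peak within 1000 bases of any listed start. For these 5 genes the distance to the nearest peak was taken from the outermost RefSeq start. It was 1252 bases at WNT3A, 2096 at WNT6, 5322 at WNT7A, 8092 at WNT8B and 10505 at WNT16. Over all protein-coding genes without a start peak, the median of this distance was 5547.5 bases (quartiles 2474.5 and 15320.2).

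WNT7A had the most assigned peaks of the ligands, 21, and none of them lay within 3000 bases of a listed start. The farthest lay 16237 bases upstream of the outer listed start and 110367 bases downstream of an inner one, and 9 lay over the gene body. The median protein-coding gene with an identifier had 3 assigned peaks and the 95th percentile was 16. WNT16 had 7 assigned peaks, of which the longest, 1909 bases (chromosome 7, 121312954 to 121314862), was the longest distal peak of any member.

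Several WNT genes lie near each other in the genome. WNT10B and WNT1 diverge from starts 6587 bases apart, and both had a start peak. WNT3 and WNT9B also diverge, from starts 14497 bases apart, with 1089 bases at WNT3 and 298 bases at WNT9B. WNT9A and WNT3A diverge from starts 59066 bases apart, with 1 other protein-coding gene between them. WNT9A had the longest start peak of all members, while WNT3A, with 10 assigned peaks, had none at its start. WNT6 and WNT10A are read in the same direction from starts 14311 bases apart, and neither had a peak at its outermost start.

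The Frizzled genes encode the seven-pass receptors. In all 9 genes with a start peak the longest one covered the start base. In 8 of the 9 it was longer than the median of all genes, against 4 of 11 among WNT genes. The longest was at FZD7 (2377 bases, chromosome 2, 202032588 to 202034964), followed by FZD1 with 2086, FZD5 with 2027, FZD8 with 1889, FZD4 with 1848, FZD2 with 1584, FZD3 with 1449 and FZD6 with 1410 bases. FZD9 was the exception in length, with 450 bases. Most of these genes are short and have few or no introns. RefSeq lengths ran between 2343 and 80047 bases with a median of 5740.5. Of their 31 assigned peaks 2 were in introns and 19 (61.3%) were intergenic, against 29.6% intergenic over the whole list. The SFRP genes had a like share, 12 of 19 peaks (63.2%).

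FZD10 had no start peak and no peak over its body. Its single assigned peak, 361 bases long, lay 24370 bases downstream of the listed start, and it was the only peak within 50 kb of the start. The median was 8.5 peaks within that distance for the FZD genes and 9 for all protein-coding genes.

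**Figure D2:**
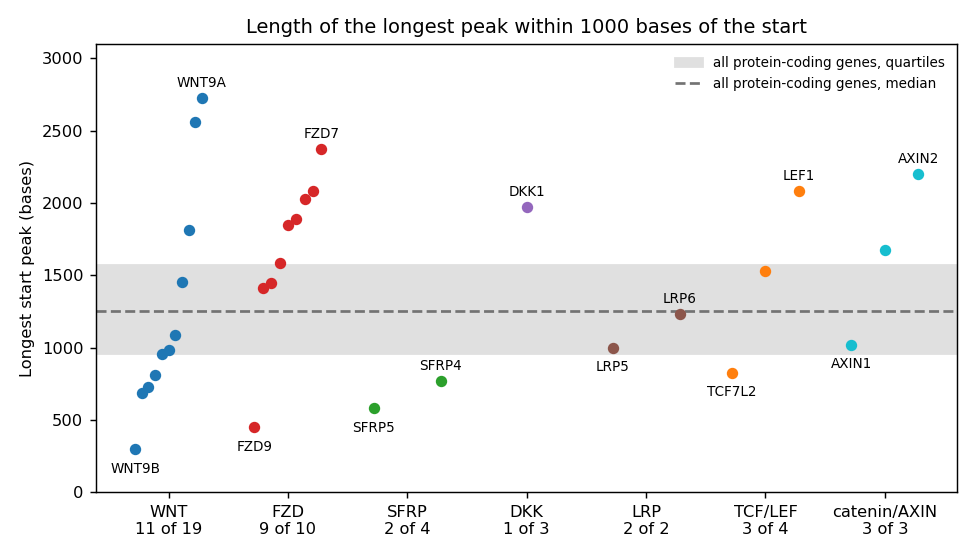
Length in bases of the longest peak within 1000 bases of the outermost start, 1 point per member with such a peak, by family, with the number of members behind each family under its name. The grey band and dashed line give the quartiles (957 to 1575 bases) and median (1256 bases) of all protein-coding genes with a start peak, and 6 of the 9 FZD points lie above the band.

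The co-receptors LRP5 and LRP6 both had a start peak but differed along the gene. LRP5 had 2 start peaks, of 999 and 785 bases, at its outermost RefSeq boundary, which lies 14197 bases upstream of the first start in the deposited table, and the table calls both intergenic. No peak covered the first or second listed start. The nearest began 428 bases downstream of the second and measured 411 bases. LRP6 had 1233 bases over its start (chromosome 12, 12266355 to 12267587). The genes are of like length in RefSeq, 150864 and 151020 bases, but 26 peaks overlapped LRP5 and 1 overlapped LRP6. Among 1942 protein-coding genes of 100000 to 200000 bases the median was 8 body peaks (quartiles 5 and 13). In that class 1.85% had 26 or more and 4.69% had at most 1.

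Of the SFRP antagonists, SFRP4 had 768 bases that reached 24 bases past its start, and SFRP5 had 582 bases that began 311 bases inside the gene. Neither SFRP1 nor SFRP2 had a start peak. The nearest peak lay 2743 bases upstream at SFRP1, a gene often silenced by promoter methylation in breast tumours, and 2502 bases inside the gene at SFRP2. Methylation was not measured here. SFRP2 also had 4 assigned peaks between 142679 and 173265 bases upstream, the farthest among the members.

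Of the Dickkopf genes, DKK1, an antagonist of LRP5 and LRP6 that is itself a known target of beta-catenin, had a start peak of 1971 bases (chromosome 10, 52313265 to 52315235). The table assigned it to another identifier, with a listed span on the opposite strand (52251965 to 52314128). The 4 peaks that carry the DKK1 identifier were therefore all distal, the nearest 3751 bases downstream. DKK2 had no peak within 14311 bases of its RefSeq boundary. A peak of 514 bases covered listed starts that lie 247376 and 247493 bases upstream of it. DKK3 had none at its outermost start, but 1020 bases covered a start 29829 bases inside the gene and 532 bases lay within 1000 bases of a start 15026 bases inside. All 10 peaks over the DKK3 body were assigned to it. DKK4 had 0 rows and no strand in the sources used, so its state was left undetermined. Both peaks over its RefSeq span (chromosome 8, 42374063 to 42391322) were assigned to the neighbouring gene VDAC3.

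The TCF/LEF genes encode the nuclear partners of beta-catenin. LEF1 had the longest start peak of the family, 2082 bases (chromosome 4, 108167369 to 108169450). TCF7L1, which acts mostly as a repressor, had 1533 bases and TCF7L2 826 bases. TCF7 had none at its RefSeq boundary, where the nearest peak was 5822 bases upstream. It had 7 further listed starts, of which 6 had a peak within 1000 bases and 4 were covered by one. The first of them, 6493 bases inside, lay under a peak of 1041 bases. Starts inside TCF7 are known to give proteins without the beta-catenin binding part, but which starts were used in these cells was not measured. At TCF7L2, 4 of 5 further starts had a peak, all between 175289 and 202167 bases inside the gene. At LEF1 none of the 3 further listed starts had one, and at TCF7L1 none of 2.

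CTNNB1, the gene of beta-catenin, had 1676 bases over its start (chromosome 3, 41198652 to 41200327). AXIN1, a scaffold of the destruction complex, had 1020 bases. AXIN2, its paralog and a widely used readout of pathway activity, had 2202 bases (chromosome 17, 65559953 to 65562154), of which 1695 lay inside the gene. A start peak shows open chromatin at the gene and gives no measure of transcription.

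When the outermost RefSeq start or any start that the table lists was accepted, 37 of 45 members had a peak (82.2%). The share was 81.6% of all protein-coding genes of known strand. WNT8A is among the 37 through its outermost RefSeq start alone. The 6 genes added were WNT5A, WNT5B, WNT10A, DKK2, DKK3 and TCF7. They are 42.9% of the 14 members without a peak at the outermost start, and the same share over all such genes with an identifier was 42.2%. The table names a transcript only where a peak lies nearest to it, so a start with no peak nearby can be missing from this count. Beyond 1000 bases from the outermost boundary, 60 further starts were listed for the members, of which 30 had a peak within 1000 bases. The share of such further starts over all genes is not given here. The 30 of 60, like the counts of further starts at single genes, is therefore a description and no trait of the members.

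At FZD7 and DKK1 no start peak carried the member's own identifier, which is 2 of 31 members (6.45%), against 10.4% of all such genes. Counting only peaks assigned to the gene itself, 29 of the 45 members had a start peak (64.4%), against 70.2% of the genes with an identifier. The FZD7 peak went to an identifier with a listed span of 768 bases on the opposite strand (202032770 to 202033537). At FZD8 the start peak of 1889 bases was assigned to MIR4683, a microRNA gene inside the receptor gene. A peak of 235 bases farther upstream was left to FZD8, which counts among the 29 through that peak alone.

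In all, 206 of the 295 assigned peaks (69.8%) lay more than 3000 bases from the listed start and are called distal, against 69.6% over the whole list. The listed start may lie inside or far outside the RefSeq gene. The distal peaks therefore include the start peaks of LRP5 and WNT8A, and that of WNT8A counts as its nearest distal peak. Promoters held 30.2% of the members' peaks and 30.4% of all peaks. Introns held 34.9% and 34.1%, and intergenic sequence 29.8% and 29.6%. Of the 103 intron peaks 95 lay in an intron of the member itself and 32 of those in its first intron. The 24 intron peaks of the TCF/LEF genes all lay in later introns of the transcript that the table names. For the 40 members with a distal peak, the nearest was at a median of 5634 bases. Distal peaks of 1000 bases or more numbered 25 and belonged to 17 members, which is 12.1% of their distal peaks, against 11% of all distal peaks. After that of WNT16 the longest were 1650 bases in an intron of WNT3, 21872 bases from the start, 1628 bases 13017 bases upstream of FZD2 and 1450 bases 14044 bases upstream of FZD1. The list does not tie a distal peak to the gene it acts on.

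**Figure D3:**
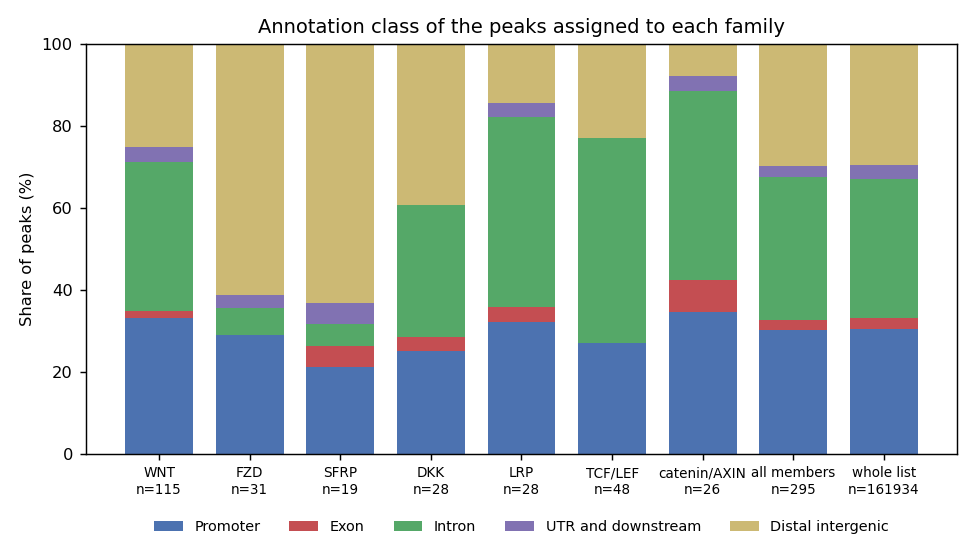
Annotation class of the peaks assigned to each family, to all members and in the whole list, as a share of peaks in percent, with the number of peaks under each bar. The bar of all members (30.2% promoter, 34.9% intron, 29.8% intergenic) is close to that of the whole list, while 61.3% of the FZD and 63.2% of the SFRP peaks are intergenic and 50% of the TCF/LEF peaks are in introns.

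Over the gene bodies 220 peaks were counted whatever gene they were assigned to. Of these, 48 (21.8%) carried another identifier, against 29.6% summed over all protein-coding genes with an identifier. LRP5 with 26, TCF7L2 with 24 and TCF7L1 with 22 held the most. At TCF7L1 13 of the 22, and at TCF7L2 10 of the 24, were assigned to other genes. At WNT9A 3 of 4 went to MIR5008, a microRNA gene inside it.

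**Figure D4:**
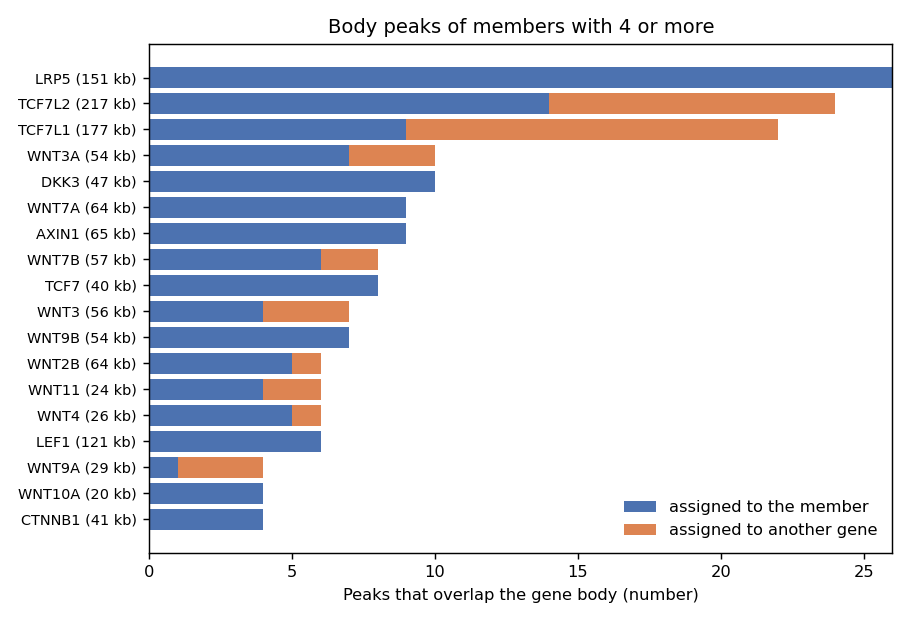
Number of peaks that overlap the RefSeq gene body, for the members with 4 or more, split by whether the table assigns the peak to the member or to another gene, with the gene length in kb. LRP5, TCF7L2 and TCF7L1 hold 26, 24 and 22 peaks, and 13 of those of TCF7L1 are assigned elsewhere.

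RefSeq promoter windows of 300 bases, 250 before and 50 after a start, were found for 32 members with 38 starts. The 25 windows with a peak within 1000 bases held a median of 31 CpG dinucleotides and the 13 without a median of 15. Over all protein-coding genes the medians were 25 with a peak and 5 without. Both sets of member windows spread widely, between 3 and 53 with a peak and between 4 and 49 without. Among those with a peak, an inner TCF7 start held 3 and an inner TCF7L2 start 7. Among those without, the windows of WNT8B and of an inner WNT8A start held 4 each. WNT3A held 49, WNT7A 40, WNT6 37, and an inner WNT9B start 38, all above the median of the windows with a peak. WNT9A held the most, 53. These are descriptions, and the part of CpG content in the presence of a peak was not tested.

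**Figure D5:**
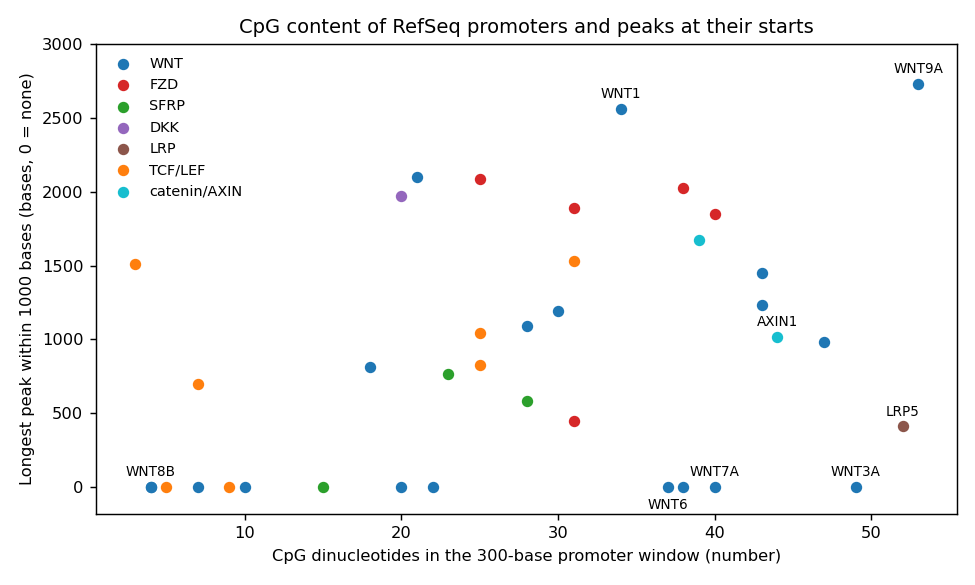
Number of CpG dinucleotides in the 300-base RefSeq promoter window against the length in bases of the longest peak within 1000 bases of that start, 1 point per start of 32 members, with 0 where there was none. WNT3A, WNT7A and WNT6 lie at 0 with 49, 40 and 37 CpG dinucleotides, while WNT9A, with 53, has 2727 bases.

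The core letters of the TCF/LEF motif, CTTTGAT, were searched on both strands of these windows. They were in 0 of the 38 member windows, and in 1.99% of the 22154 windows of all protein-coding genes. With so few member windows, 0 cannot be told apart from that share. The member windows were also richer in G and C, with a median of 68.3% against 62.3%, and no motif share was tested. The shorter CTTTGA, which any CTTTGAT contains, was in 1 member window (2.63%) and in 11% of all windows. That window was the one of DKK1, which held 2 copies inside the start peak. They are shown with 15 bases on either side, with the match in capitals, and the first reads as the reverse complement TCAAAG.
DKK1 (chr10:52314117-52314152, plus strand): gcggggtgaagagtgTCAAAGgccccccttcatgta
DKK1 (chr10:52314171-52314206, plus strand): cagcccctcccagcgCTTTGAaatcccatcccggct
The absence of these letters from a window says nothing of sites elsewhere, and a match is not a measured binding site.

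Of 50 other genes of the pathway 43 had a start peak (86%), against 71.6% of all protein-coding genes, and this share was not tested against that of the members. All 9 genes listed with the destruction complex, TNKS and TNKS2 among them, had one. So did all 9 listed with the nuclear cofactors, CTNNBIP1 among them, and PORCN, WLS and NOTUM. The longest were at TPBG, a membrane inhibitor of WNT signalling (2560 bases), WLS, the ligand carrier (2334 bases), and DVL3, a cytoplasmic relay (2199 bases). R-spondins raise receptor levels at the membrane, and the 9 genes listed for their system include RNF43 and ZNRF3. Of these 9, 8 had a start peak, including the receptors LGR4 (2015 bases) and LGR5 (1877 bases), and RSPO4 had none. The antagonists other than SFRP and DKK, NOTUM not counted among them, had 5 of 8, with none at SOST or APCDD1. SOSTDC1, of unknown strand, had none at either end. Dishevelled and feedback genes had 5 of 7, without NKD2 and DACT1, and other receptors 4 of 5, without ROR2. NKD2, DACT1 and ROR2 had a peak at another listed start.

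For the labelled cell type, EGFR, CD44, VIM and FOXC1, genes of basal and mesenchymal breast cells, all had a start peak. So did 71.6% of all protein-coding genes. ESR1, the estrogen receptor gene, had none at its outermost start but had one at another listed start and 28 peaks over its body. PGR and ERBB2, also lacking as receptors in triple-negative cells by definition, had start peaks of 2212 and 1221 bases. The presence of a start peak thus did not separate them from the basal and mesenchymal genes. CD3E and PTPRC, of T cells and leukocytes, had none at their outermost start, though PTPRC had a peak at another listed start. PECAM1, of endothelium, was of unknown strand and had none within 1000 bases of either end, and its other starts were not examined. Depth per library is unknown, since the list holds no counts.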

How the data were processed

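Per the labels' protocols, DNA of lysed MDA-MB-231 cells was tagmented with Tn5 before PCR amplification. The submitters' processing notes name Bowtie2 2.3.5.1, MACS2 2.2.6 and the build hg38. Not given in the sources used here are the peak threshold, duplicate handling, Tn5 shift, merging of libraries and annotation release, which set the number and edges of peaks. The deposited list has 17 columns, per the file headers, with positions, lengths and distances in bases. In 100% of rows the listed distance was recomputed.

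RefSeq spans (GRCh38.p14, the same build) gave symbols. An Ensembl identifier was paired with a gene where each was the other's best overlap and at least 0.7 of the shorter span was shared, which paired 16949 of 19974 protein-coding genes on chromosomes 1 to 22 and X. Of the 45 paired members, 39 shared a boundary within 100 bases. Strand came from the RefSeq promoter table or the paired identifier. A gene of unknown strand was given a state where its ends did not differ in having a peak, which left 188 genes undetermined. Peak lookup was tested at 1000 random positions among simulated intervals, all counted as by brute force. Members, lists and definitions were chosen with earlier results of these data known. All members are accounted for. Those described in full have, in their family, the longest start peak or most rows, or lack a start peak. No test was run, since no value per library exists. The planned edgeR test was not run for that reason. Computation used Python 3.11.15, numpy 2.4.6, pandas 2.3.3 and scipy 1.17.1.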

Additional observations from a re-analysis of the deposited data

How the results depend on the processing

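No paired analysis was possible because libraries have no columns of their own, and leaving out each library was not run for the same reason. Of the values recomputed under other settings, 44 stayed within 1.5 times the reported one and 7 did not. With 3000 bases in place of 1000, 36 members and 4 SFRP genes had a start peak, against 31 and 2 as reported, and 81.7% of all genes had one. Where the peak had to cover the start base, 1 SFRP gene was left. At any listed start 3 DKK genes had one, against 1. Requiring peaks assigned to the member left 29 members. Rows of the median length of 539 bases or longer numbered 159, against 295. Further starts under a peak numbered 16, against 30 within 1000 bases. The nearest distal peak was at 13951 bases when distal meant over 10000 bases. The shorter motif was found in 1 member and the longer in 0. These changes follow from the stricter or wider definitions. Chosen after seeing the data were the promoter-table starts, the count over gene bodies, the start-base and 500-base settings for families, and listed starts for the other pathway genes. The rebuilt pairing of identifiers and the outermost RefSeq start limit each count.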

Other observations

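The peaks inside TCF7L1 and TCF7L2 that carried another identifier went mostly to identifiers with a short listed span within the gene. At TCF7L1 7 went to an identifier with a listed span of 124 bases (chromosome 2, 85262144 to 85262267). A further 4 went to the intronic transcript TCF7L1-IT1, and 1 to the pseudogene RNU6-674P. At TCF7L2 6 went to the pseudogene RPS15AP30, with a listed span of 390 bases, and 4 to an identifier with one of 1230 bases just inside the start. At SFRP1, 2 of the 3 body peaks went to the pseudogene RNU6-895P. Peaks with the gene's own identifier numbered 11 at TCF7L1, against 22 over its body, and 21 at TCF7L2, against 24. At WNT7A they numbered 21, against 9 over its body.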
